A study of Mus musculus with 16 samples.

Results

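Matrix metalloproteinases (MMPs) and their tissue inhibitors (TIMPs) were measured by bulk RNA sequencing in 16 MC38 tumors. MC38 is a mouse colon carcinoma cell line of C57BL/6 origin, used as a transplantable model of checkpoint blockade. The 10 genes, 7 MMPs and 3 TIMPs, were found by symbol among 53465 genes of the count table. Each matched 1 entry, and all 10 had enough counts to be among the 18251 genes tested. Female C57BL/6 mice of 6 to 8 weeks were injected with MC38 cells under the skin of the right flank. Mice whose tumors measured 150 to 250 mm3 on day 16 were given 200 ug of control IgG or of an antibody to PD-1 (aPD-1) on days 16 and 20, and tumors were taken on day 21. The labels divide the tumors into 8 IgG controls (replicates 1 to 8), 6 aPD-1 non-responders (replicates 9 to 14) and 2 aPD-1 responders (replicates 15 and 16). Response status was assigned by the study from staining of CD8 T cells, so T cell genes are not independent of the groups. Every mouse carried the same cell line, each library came from 2 frozen sections of 100 um cut from 1 tumor, and the labels give no batch or date.

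MMPs are zinc-dependent proteases that cut collagens, elastin, proteoglycans and many signaling proteins outside the cell. Most are secreted as inactive proenzymes and are opened by other proteases, while TIMPs bind the active site and block it. In tumors they are made by cancer cells, fibroblasts, macrophages, neutrophils and endothelial cells, and transcription of several of them is driven by AP-1, the dimer of Fos and Jun proteins.

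Mmp3, Mmp10, Mmp12 and Mmp13 lie within 238 kb of one another on chromosome 9 (GRCm38, chr9:7272514-7510240), and the other 6 members lie on other chromosomes. Promoter windows were available for 8 of the 10 members in RefSeq (GRCm38.p6); Mmp2 and Mmp9 had none. The 250 bases before the start are printed for the 4 genes of the cluster, whose levels varied widely between tumors, and for Timp3 and Timp2, the inhibitors that varied most and least. Capitals mark matches to the AP-1 motif TGANTCA and to the TATA box TATAAA on either strand, and each sequence runs 5′ to 3′ on the strand of the gene. For Mmp12, RefSeq lists 2 starts and the downstream one is shown. The window of its upstream start held neither motif.
Mmp3 (chr9:7445572-7445821, + strand): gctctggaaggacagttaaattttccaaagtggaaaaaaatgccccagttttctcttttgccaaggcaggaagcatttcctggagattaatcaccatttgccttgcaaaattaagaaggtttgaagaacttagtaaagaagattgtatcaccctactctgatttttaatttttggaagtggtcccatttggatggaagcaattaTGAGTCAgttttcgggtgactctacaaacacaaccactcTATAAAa
Mmp10 (chr9:7502092-7502341, + strand): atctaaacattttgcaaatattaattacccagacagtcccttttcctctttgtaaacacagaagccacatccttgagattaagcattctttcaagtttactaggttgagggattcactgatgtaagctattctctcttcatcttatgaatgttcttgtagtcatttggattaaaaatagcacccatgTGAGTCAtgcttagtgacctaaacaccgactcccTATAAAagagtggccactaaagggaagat
Mmp13 (chr9:7272264-7272513, + strand): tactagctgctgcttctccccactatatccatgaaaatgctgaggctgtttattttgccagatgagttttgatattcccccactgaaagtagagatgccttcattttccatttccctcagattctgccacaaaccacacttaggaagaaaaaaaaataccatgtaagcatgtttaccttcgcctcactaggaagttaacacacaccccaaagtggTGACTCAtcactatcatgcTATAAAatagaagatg
Mmp12 (chr9:7347124-7347373, + strand): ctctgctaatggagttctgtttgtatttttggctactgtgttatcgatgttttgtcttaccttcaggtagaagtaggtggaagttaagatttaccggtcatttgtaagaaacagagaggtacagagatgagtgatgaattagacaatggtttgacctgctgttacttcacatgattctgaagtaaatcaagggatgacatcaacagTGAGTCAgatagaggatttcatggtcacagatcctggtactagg
Timp3 (chr10:86300162-86300411, + strand): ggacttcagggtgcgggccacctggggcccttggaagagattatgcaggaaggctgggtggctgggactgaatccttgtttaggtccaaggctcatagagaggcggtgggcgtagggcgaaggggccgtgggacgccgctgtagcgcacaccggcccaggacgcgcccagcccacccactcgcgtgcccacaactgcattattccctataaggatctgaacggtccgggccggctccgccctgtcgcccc
Timp2 (chr11:118355412-118355661, - strand): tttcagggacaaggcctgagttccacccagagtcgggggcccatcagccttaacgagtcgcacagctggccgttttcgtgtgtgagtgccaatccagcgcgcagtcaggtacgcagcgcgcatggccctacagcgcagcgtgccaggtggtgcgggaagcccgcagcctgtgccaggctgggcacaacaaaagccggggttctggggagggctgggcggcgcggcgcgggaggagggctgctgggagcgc

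The AP-1 motif was present in 4 of the 9 member windows and all 4 belonged to the chromosome 9 cluster, while 6.75% of 32851 RefSeq windows of the same length held it. It began 46 bases before the start of Mmp3, 63 before that of Mmp10, 35 before that of Mmp13 and 44 before the downstream start of Mmp12. The TATA box was present in the windows of Mmp3, Mmp10 and Mmp13 and in 12.4% of all windows. The GC box GGGCGG was found for Mmp14, Timp1, Timp2 and Timp3 and in 32.7% of all windows. The PEA3 motif AGGAAG, bound by Ets factors, was found in 6 of the 9 windows and in 29.5% of all windows. It overlapped none of the AP-1 or TATA matches. These are matches of letters only, and binding was not measured.

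Levels were compared between genes as CPM (counts scaled to library size) per kb of exon, averaged over the 16 tumors. Timp2, which inhibits MMPs and also helps MMP14 activate the MMP2 proenzyme, was highest with 104 CPM per kb and led in 16 of 16 tumors. Timp1 (46.5), the membrane protease gene Mmp14 (46.3) and the gelatinase gene Mmp2 (45.04) followed within a narrow range. Timp1 exceeded Mmp14 in 8 of 16 tumors and Mmp14 exceeded Mmp2 in 10 of 16, so these neighbors did not separate. Mmp3 (21.8 CPM per kb), Mmp9 (19.2) and Mmp13 (18.9) formed a second set, in which Mmp3 exceeded Mmp9 in 7 of 16 tumors and Mmp9 exceeded Mmp13 in 8 of 16. Mmp12 (12.1 CPM per kb) and Timp3 (4.07) came next. Mmp10 was lowest at 0.557 CPM per kb, with 8 to 86 counts in a tumor, and its differences carry the largest counting error of the 10.

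The members also differed in how much they varied between tumors. Over the 14 tumors that were not responders, the SD of log2 CPM was 1.26 for Mmp3, which exceeded that of 96.9% of the genes tested. It was 0.90 for Mmp13, 0.90 for Mmp12, 0.85 for Timp3 and 0.84 for Mmp10. The SD was 0.49 for Mmp9, 0.31 for Mmp14 and for Mmp2, 0.23 for Timp1 and 0.21 for Timp2. From the lowest to the highest of these 14 tumors the level of Mmp3 differed 15.3-fold and that of Timp2 1.71-fold. The plot of CPM by tumor shows this contrast.

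**Figure D1:**
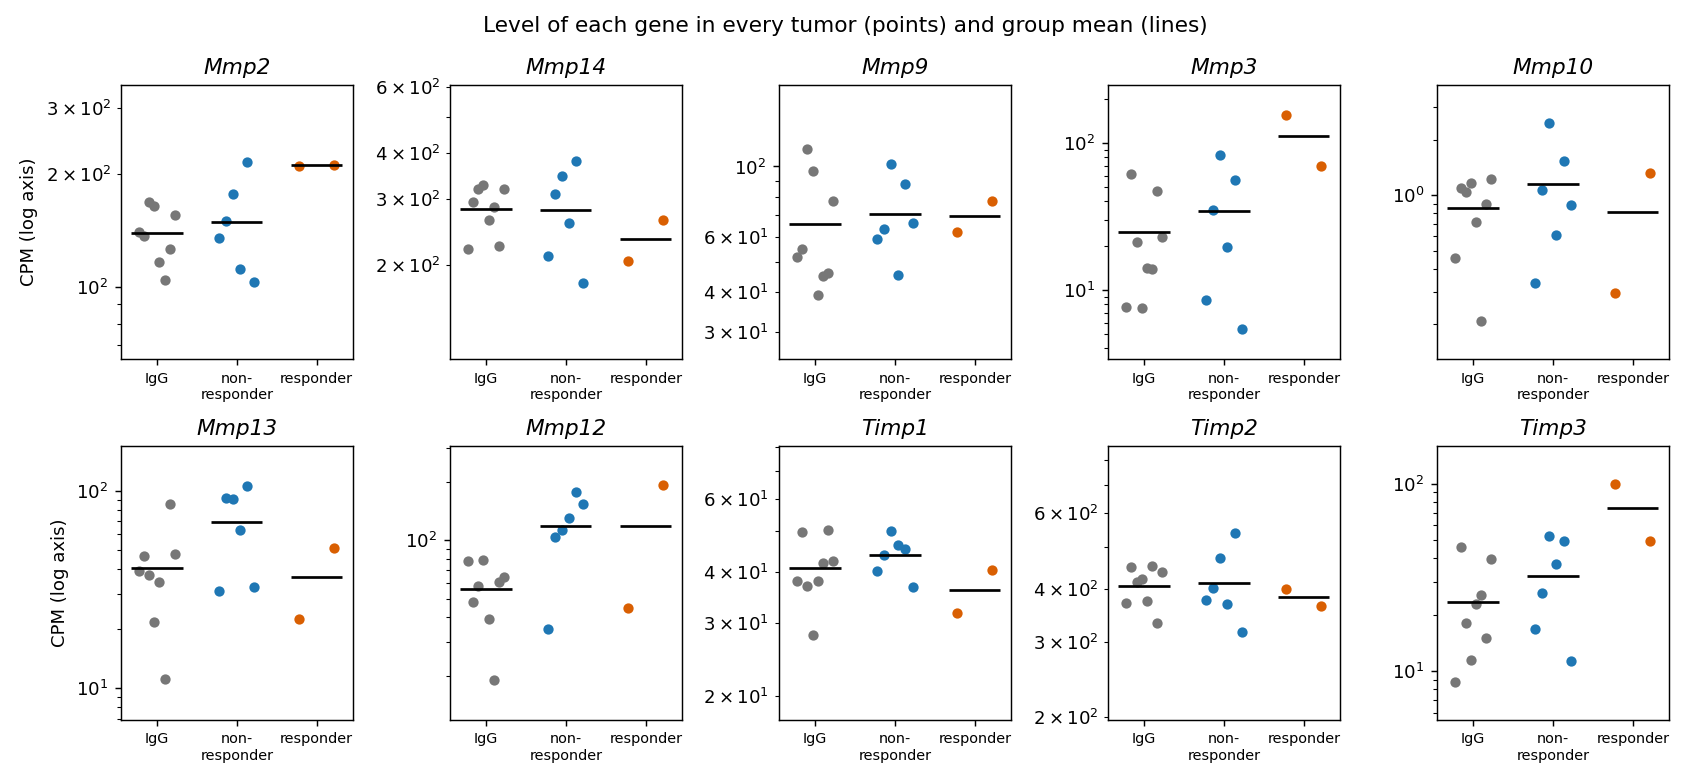
CPM of each of the 10 genes (y axis, log scale, a separate range in each panel) in IgG control (n = 8), non-responder (n = 6) and responder (n = 2) tumors, where points are tumors and lines are group means. Both responders lie above all 8 IgG controls for Mmp2, Mmp3 and Timp3, and no gene separates the responders from the 6 non-responders.

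Some libraries stood apart and bear on these genes. Total counts ran from 26603449 to 39948866 per tumor. Mitochondrial genes took 7.60% of counts in IgG control replicate 1, 6.00% in non-responder replicate 9 and 5.73% in non-responder replicate 14, against 2.52% to 3.25% in the other 13 tumors. The 5 endothelial markers summed to 341 CPM in responder 15 and 183 CPM in responder 16, against 52.0 to 163 CPM in IgG controls and 38.4 to 149 CPM in non-responders. Fat cell markers summed to 1180 and 213 CPM in responders 15 and 16 and to at most 79.6 CPM elsewhere, and B cell markers to 908 and 242 CPM against at most 6.03 CPM. Lymph node stroma and high endothelial venule markers reached 508 and 145 CPM, against at most 4.35 CPM. The neutrophil sum was 14.9 and 30.7 CPM in the responders and at most 12.4 CPM in the other tumors, with Ly6g at 0 counts in all 16. Fibroblast markers summed to 2821 to 3376 CPM in responders and 1499 to 2929 CPM in the other 14 tumors, and macrophage markers to 1177 to 1293 CPM and 762 to 1282 CPM. The fibroblast genes did not move together. Responder means of Col1a1, Col1a2 and Lum were 425, 667 and 163 CPM. For these, controls averaged 120, 151 and 44.1 CPM and non-responders 158, 228 and 43.3 CPM. Postn and Pdgfrb also had higher means in responders. Dcn and Pdgfra, the largest parts of the sum in controls, had lower responder means, 1157 and 263 CPM. Controls averaged 1211 and 344 CPM for them, and non-responders 1382 and 294 CPM. The 9 epithelial and colon markers summed to 119 and 52.0 CPM in responders 15 and 16 and to at most 13.5 CPM elsewhere, with 5 of the 7 tested higher against non-responders and 6 against IgG controls. Krt8, Krt18 and Krt19, keratins of simple epithelia, led that sum. The colon markers Cdx2, Vil1 and Krt20 reached at most 0.026, 0.283 and 0.709 CPM in any tumor, so the labelled colorectal origin was not visible in these 3 genes. Cdh17, of the same list, was detected at low levels in each group. Its mean was 0.612 CPM in IgG controls, 0.834 CPM in non-responders and 1.76 CPM in responders. Skeletal muscle markers summed to 1670 CPM in IgG control replicate 6 and to at most 62.6 CPM elsewhere, and this tumor had the lowest level among the controls of Mmp2, Mmp10, Mmp12 and Mmp13. In IgG control replicate 3 a single gene took 20.4% of counts, and its Mmp2 and Mmp9 levels were the highest of the controls. In bulk tissue, more cells of a type and more RNA per cell cannot be told apart.

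Responders were compared with non-responders first, the contrast of outcome under the same antibody. None of the 10 members passed at an adjusted p below 0.05 (edgeR quasi-likelihood test, Benjamini-Hochberg over all genes tested), while 19.7% of the genes tested did. Mmp2 and Timp3 were below 0.05 before adjustment, a level that 31.2% of the genes tested reached. The median log2 fold change was -0.06 over the members and 0.02 over all genes. No member separated the groups without overlap, as 34.7% of all genes did. In the exact permutation test 2 tumors against 6 cannot go below a two-sided p of 0.0714.

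Mmp2, a gelatinase that degrades type IV collagen of basement membranes, was 211 and 211 CPM in the responders and ran from 103 to 216 CPM with a median of 143 CPM in the non-responders. The responders were thus high but within the non-responder range, since replicate 13 was higher. The log2 fold change was 0.50 (SE 0.23, edgeR adjusted p = 0.145), and without non-responder replicate 13 it was 0.64 and passed. That fit leaves out the highest non-responder for Mmp2, and 19.6% of all genes passed in it. Mmp9, the other gelatinase, stored in neutrophils and made by macrophages, was 62.0 and 77.9 CPM in the responders and 45.2 to 101 CPM in the non-responders. Its 95% interval for the log2 fold change ran from -0.79 to 0.77. Mmp14, the membrane-anchored collagenase that activates the MMP2 proenzyme, was 205 and 264 CPM in the responders and 179 to 380 CPM in the non-responders, a log2 fold change of -0.26 (SE 0.25, edgeR adjusted p = 0.530). Without the 3 tumors of high mitochondrial share, Mmp14 passed at a log2 fold change of -0.52 with an edgeR adjusted p of 0.0295. In that fit 32.6% of all genes passed.

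Mmp3, stromelysin 1, which cuts proteoglycans and opens other proMMPs, was 155 CPM in responder 15 and 69.3 CPM in responder 16. The non-responders ran from 5.42 to 82.8 CPM with a median of 27.4 CPM. Responder 15 was above every other tumor and responder 16 lay inside the non-responder range, and the log2 fold change of 1.70 had an SE of 0.83 (edgeR adjusted p = 0.179). Mmp10, stromelysin 2, was 0.296 and 1.32 CPM in the responders and 0.336 to 2.48 CPM in the non-responders, and its interval for the log2 fold change ran from -2.02 to 1.00.

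Mmp13, the main interstitial collagenase of mice, was 22.3 and 51.0 CPM in the responders and 31.1 to 105 CPM in the non-responders. Responder 15 was below all 6 non-responders, but the log2 fold change of -0.91 (SE 0.62) did not pass (edgeR adjusted p = 0.351). Mmp12, macrophage elastase, was 44.7 CPM in responder 15 and 193 CPM in responder 16, which nearly span the non-responder range of 34.9 to 179 CPM. The group means were both 119 CPM, with an SD of 105 CPM over the responders (n = 2) and 49.4 CPM over the non-responders (n = 6). Responder 16 had the highest Mmp12 level of the 16 tumors.

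Among the inhibitors, Timp3, which binds to the matrix and also inhibits ADAM proteases, was 99.9 and 49.2 CPM in the responders and 11.3 to 52.7 CPM with a median of 31.7 CPM in the non-responders. Only responder 15 was above the non-responder range. The log2 fold change was 1.21 (SE 0.57, edgeR adjusted p = 0.158). Timp1, a soluble inhibitor induced by inflammation, was 31.8 and 40.3 CPM against 36.8 to 50.1 CPM, and Timp2 was 398 and 364 CPM against 316 to 539 CPM. Their 95% intervals for the log2 fold change were -0.67 to 0.11 and -0.48 to 0.26, so differences beyond those bounds were not seen at this number of tumors.

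Responders were next compared with IgG controls, which share the responder tumors with the contrast above. Timp3 passed and the other 9 members did not, against 22.9% of all genes that passed and 17.7% that passed as higher. Mmp2, Mmp3 and Timp3 were above all 8 IgG controls in both responders, which 19.3% of the genes tested also were. Before adjustment 4 members were below 0.05, against 33.3% of the genes tested. For Mmp2, Mmp3 and Timp3 the exact two-sided permutation p was 0.0444 each, the smallest that 2 against 8 tumors can give. The median log2 fold change was 0.01 over the members and -0.02 over all genes.

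Timp3 ran from 8.78 to 45.9 CPM with a median of 20.5 CPM in the IgG controls and was 99.9 and 49.2 CPM in the responders. Both responders were higher than every control, responder 16 only slightly so. The log2 fold change was 1.67 (SE 0.53, 95% interval 0.55 to 2.78, edgeR adjusted p = 0.0305). Without responder 15 it was 1.00 and without responder 16 it was 2.04, each with 1 responder left in the fit. The endothelial, fibroblast, macrophage, neutrophil, T cell, B cell, fat cell, lymph node and epithelial marker sums were also above all controls in both responders. The keratinocyte and skeletal muscle sums were not. The part of these sums in the Timp3 difference was not tested.

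Mmp3 ran from 7.53 to 62.0 CPM with a median of 17.6 CPM in the IgG controls. Its log2 fold change in responders was 2.19 (SE 0.77) and its edgeR adjusted p of 0.0528 missed the threshold narrowly. Mmp2 ran from 105 to 168 CPM in the controls, and its log2 fold change was 0.60 (SE 0.22, edgeR adjusted p = 0.0601). Both passed, with Timp3, with the mitochondrial share as a covariate, where 35.4% of all genes passed, and with the 10 tumors of these groups alone (20.2%). They also passed without the 3 tumors of high mitochondrial share (41.6%) and without non-responder replicate 14 (22.9%). Mmp12 had a log2 fold change of 1.09 (SE 0.50, edgeR adjusted p = 0.139), with responder 16 above all controls and responder 15 inside their range of 19.0 to 79.3 CPM. The log2 fold changes of the other 6 members lay between -0.27 (Mmp14) and 0.09 (Mmp9).

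Non-responders were compared with IgG controls to see whether the antibody changed these genes where the tumor did not respond. None of the 10 members passed in the edgeR test and 0% of the genes tested did, nor did any member in DESeq2. Before adjustment 1 member was below 0.05, against 3.8% of the genes tested. That gene was Mmp12, at 19.0 to 79.3 CPM with a median of 59.6 CPM in the controls and 34.9 to 179 CPM with a median of 121 CPM in the non-responders. In all, 5 of the 6 non-responders were above all 8 controls, and replicate 9 was among the controls. The log2 fold change was 1.09 (SE 0.36) with an edgeR adjusted p of 0.987, and the exact two-sided permutation p for this gene alone was 0.0226. Mmp13 had a median of 38.1 CPM in the controls and 77.01 CPM in the non-responders, 3 of which were above all controls, and its log2 fold change was 0.78 (SE 0.38, edgeR adjusted p = 0.987). Without IgG control replicate 6, the lowest control for both, the log2 fold changes were 0.96 for Mmp12 and 0.63 for Mmp13. Log2 fold changes were positive for 9 of the 10 members, with a median of 0.27 against -0.01 over all genes. For Timp1 and Timp2 the 95% intervals were -0.15 to 0.36 and -0.22 to 0.26.

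**Figure D2:**
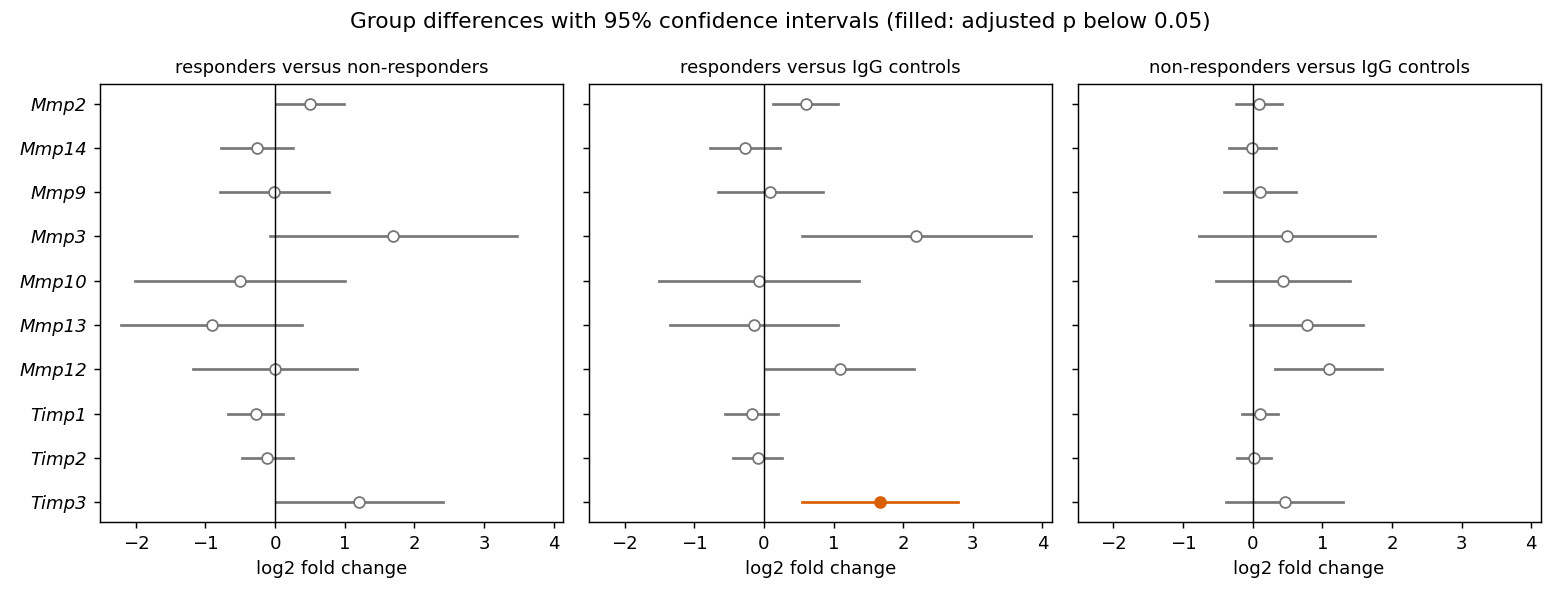
Log2 fold change (x axis) of each member (y axis) in the 3 comparisons, with the 95% confidence interval of the edgeR fit as a line and a filled marker where the adjusted p was below 0.05. Timp3 in responders against IgG controls, at 1.67, is the 1 filled marker, and the widest interval in each panel belongs to Mmp3.

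Relations between members were then examined across tumors. The analysis was made over the 14 tumors that were not responders, because the responders stand apart, for all 45 pairs. Pearson's r was positive in 44 pairs with a median of 0.481, and 15 pairs passed after Benjamini-Hochberg adjustment over the 45 (permutation test, two-sided), 11 of 45 by Spearman's rho. Over all pairs of the genes tested, 50.1% of r values were positive. An r of at least 0.646 in size, the lowest among the 15, was reached by 33.3% of the member pairs and 18% of all pairs. Without the 3 tumors of high mitochondrial share 9 pairs passed by r and 6 by rho. Mmp14 and Timp2, which with MMP2 form the complex that activates proMMP2 at the cell surface, had the highest value (r = 0.883, permutation p = 3e-05, adjusted 0.00135; rho = 0.820, permutation p = 0.00057, adjusted 0.00855). Without the 2 tumors farthest from the median of Mmp14, r was 0.866. Mmp2 was related to Mmp14 (r = 0.742, adjusted permutation p = 0.0202; rho = 0.8286, adjusted 0.00855), but r was 0.556 without the 2 tumors farthest from the Mmp2 median. Mmp2 and Timp2 passed by r (0.701, adjusted permutation p = 0.0307) and not by rho (0.635, adjusted permutation p = 0.0549). Their r was 0.399 without the same 2 tumors. Mmp2 and Mmp9 had r = 0.774 (adjusted permutation p = 0.0178) and rho = 0.780 (adjusted 0.00984), with r = 0.915 without the 2 farthest tumors.

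A second group of relations joined Mmp3 with inhibitors and with Mmp13, another gene of the chromosome 9 cluster. Mmp3 and Timp1 had r = 0.796 (adjusted permutation p = 0.00675) and rho = 0.833 (adjusted 0.00855), with r = 0.772 without the 2 farthest tumors. For Mmp3 and Timp3 r was 0.780 (adjusted permutation p = 0.0179) and rho 0.811 (adjusted 0.009), with r = 0.688 without the 2 farthest tumors. Without the 3 tumors of high mitochondrial share this pair did not pass (r = 0.647, adjusted permutation p = 0.103; rho = 0.700, adjusted 0.0808). Over the 14 tumors the mitochondrial share had r = -0.621 with Mmp3 and -0.642 with Timp3, and its part in the relation was not tested. Mmp3 and Mmp13 had r = 0.707 (adjusted permutation p = 0.0307) and rho = 0.785 (adjusted 0.00984), with r = 0.685 without the 2 farthest tumors. Mmp10 and Mmp12, which lie closer to Mmp3 than Mmp13 does, did not pass with it. Their r was 0.598 and 0.182 (adjusted permutation p = 0.0578 and 0.648). Within the cluster, Mmp13 and Mmp12 had r = 0.677, but their rho of 0.569 did not pass (adjusted permutation p = 0.0858), and r was 0.325 without the 2 farthest tumors, so that relation rests on them. Within the 8 IgG controls alone no pair passed, 25 of 45 were positive and the median r was 0.175. Within the 6 non-responders no pair passed either, all 45 were positive and the median r was 0.728. Mmp2 and Timp2 had a rho of 1.0 there (permutation p = 0.00278, adjusted 0.125) and r = 0.976 (permutation p = 0.00139, adjusted 0.0625). These p-values are the smallest that 6 tumors can give. A pair thus could not pass on its own, and no conclusion is drawn from the lack of passing pairs.

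**Figure D3:**
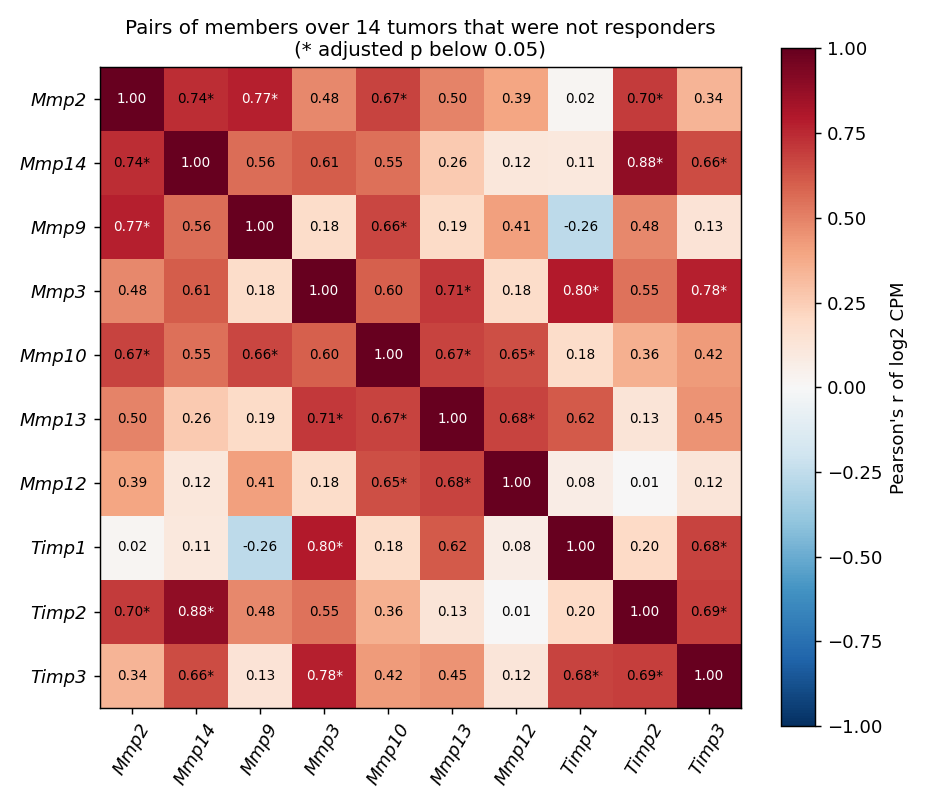
Pearson's r of log2 CPM for each pair of members over 14 tumors that were not responders, colored from blue (-1) to red (1), with an asterisk where the adjusted permutation p was below 0.05. The highest value off the diagonal, 0.883, is that of Mmp14 and Timp2, and 15 of 45 pairs carry an asterisk.

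Several members also followed cell type markers. Over the same 14 tumors, 50 relations of members with the summed markers of 4 cell types and with the mitochondrial share were computed, and 7 passed by r and 3 by rho. Timp3 rose with the endothelial sum (r = 0.903, permutation p = 2e-05, adjusted 0.001; rho = 0.903, permutation p = 4e-05, adjusted 0.002), and r was 0.911 without the 2 tumors farthest from the median of that sum. Mmp3 did so as well (r = 0.863, adjusted permutation p = 0.0025; rho = 0.877, adjusted 0.0035), with r = 0.802 without the 2 farthest. Timp2 (r = 0.763, adjusted permutation p = 0.0184) and Mmp14 (r = 0.749, adjusted permutation p = 0.0216) also passed by r with the endothelial sum, but not by rho (0.732 and 0.622, adjusted permutation p = 0.0502 and 0.119). With the macrophage sum, Timp3 (r = 0.763, adjusted permutation p = 0.0184) and Mmp3 (r = 0.687, adjusted permutation p = 0.0491) passed by r and not by rho (0.714 and 0.653, adjusted permutation p = 0.0535 and 0.118). Without the 2 tumors farthest from the median of each sum, these 4 values of r were 0.667, 0.678, 0.599 and 0.530. Timp1 passed with the endothelial sum by rho (0.749, adjusted permutation p = 0.0482) and not by r (0.655, adjusted permutation p = 0.0560). In the 11 of these tumors with a low mitochondrial share, r with the endothelial sum was 0.881 for Timp3 (adjusted permutation p = 0.0204) and 0.747 for Mmp3 (adjusted permutation p = 0.102). With the macrophage sum it was 0.555 and 0.417 there (adjusted permutation p = 0.178 and 0.369). Timp3 also passed by rho in these 11 tumors, with the endothelial (0.864) and the fibroblast sum (0.873, adjusted permutation p = 0.0226 for both). Mmp14 fell with the mitochondrial share (r = -0.753, adjusted permutation p = 0.0231), although rho was -0.582 and did not pass (adjusted permutation p = 0.120). Mmp12, macrophage elastase, had r = 0.200 with the macrophage sum (adjusted permutation p = 0.619) and Mmp9 had r = 0.362 with the neutrophil sum (adjusted permutation p = 0.317), and neither passed. In the 11 tumors these values of r were 0.447 and 0.688 (adjusted permutation p = 0.320 and 0.112). Csf3r made up most of the neutrophil sum here, with means of 6.38 CPM in IgG controls and 7.62 CPM in non-responders.

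**Figure D4:**
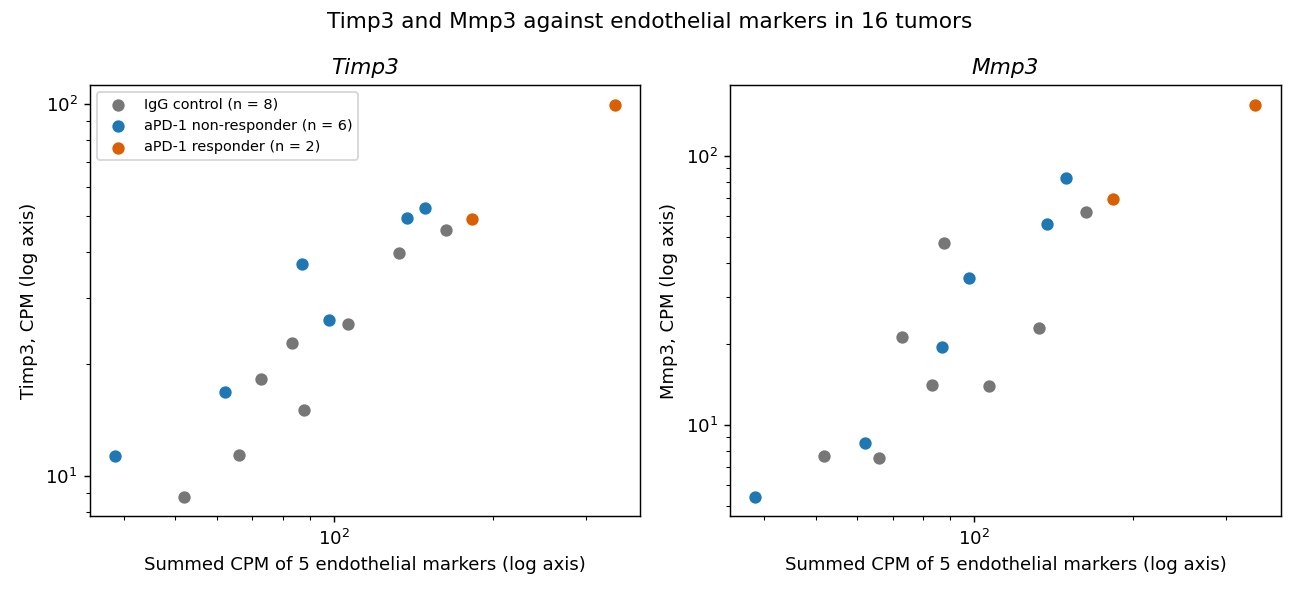
CPM of Timp3 (left) and Mmp3 (right) on the y axis against the summed CPM of 5 endothelial markers on the x axis in 16 tumors, both axes on a log scale, colored by group. Responder 15, at 341 CPM of endothelial markers, is the highest point in both panels.

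By likeness of pattern over all 16 tumors, genes close to Timp3 by Spearman's rho among 18250 others included Srpx2 (0.976) and Adam23 (0.968). Those closest to Mmp3 were Cpxm1, Tfpi2 and Mfap2, each at 0.956. Mmp12 was closest to Il1rn (0.947), the interleukin 1 receptor antagonist, and Mmp2 to Stat3 (0.924). These values are a description, since the responders weigh on every rank.

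The wider set of matrix turnover genes was counted from a list of 56 genes in 6 roles, of which 49 were tested. Against non-responders 10 of 49 passed, 7 higher and 3 lower in responders, or 20.4% beside 19.7% of all genes. Against IgG controls 11 of 49 passed, 9 higher and 2 lower, or 22.4% beside 22.9%. Both shares were near the background. Non-responders against IgG controls gave 0 of 49 in the edgeR test, with 1 below 0.05 before adjustment, and also 0 in DESeq2. Fits without responder 15 leave 1 responder, so no count is read from them. Without the 3 tumors of high mitochondrial share the counts were 13 against non-responders and 19 against IgG controls, beside 32.6% and 41.6% of all genes. With the mitochondrial share as a covariate they were 15 and 22, beside 29.8% and 35.4% of all genes.

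Of the other MMPs, 5 of 10 tested passed against non-responders. Mmp19, a stromal protease that cuts basement membrane proteins, rose to 30.5 ± 3.15 CPM (SD, n = 2) from 15.04 ± 5.00 CPM (SD, n = 6). Its log2 fold change was 1.02 (SE 0.24, edgeR adjusted p = 0.00659). Against IgG controls its log2 fold change was 1.33 (SE 0.23, edgeR adjusted p = 3.76e-04), and it was 1.14 there without responder 15. Mmp23, Mmp27 and Mmp15 also rose, with log2 fold changes of 2.17, 2.12 and 1.496 against non-responders, from low levels. Leaving out 1 tumor at a time, their lowest log2 fold changes against non-responders were 1.089, 1.105 and 0.532. In responder 15 Mmp23, Mmp27 and Mmp15 were 10.4, 2.51 and 6.21 CPM, and in responder 16 they were 3.43, 0.872 and 2.28 CPM. The highest non-responder was at 2.88, 0.749 and 2.24 CPM, so responder 16 was only slightly above it. Mmp11, stromelysin 3, which fibroblasts of tumors make, fell by 0.99 on the log2 scale to 19.0 ± 4.87 CPM (SD, n = 2) from 37.8 ± 4.49 CPM (SD, n = 6), with an edgeR adjusted p of 0.00732. Mmp8 and Mmp25, proteases of neutrophils, passed against IgG controls and not against non-responders, and whether the contrasts differ was not tested. Mmp8 was 1.06 CPM in responder 15, inside the control range of 0.191 to 1.22 CPM, and 5.54 CPM in responder 16, so only 1 responder was above the controls behind its log2 fold change of 2.16. Mmp25 was 2.28 and 2.53 CPM in the responders and 0.152 to 1.20 CPM in the controls, a log2 fold change of 1.69.

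Among the other inhibitors and receptors, Timp4 had 145 counts in responder 15 and 22 in responder 16, against 10 counts in all 6 non-responders together and 43 in all 8 controls. The tetraspanin Cd63, a cell-surface partner of TIMP1, fell by 0.56 on the log2 scale against non-responders (edgeR adjusted p = 0.0133). Of 14 ADAM and ADAMTS proteases, Adamts5, an aggrecanase, was 79.4 CPM in responder 15 and 28.3 CPM in responder 16 against 22.2 ± 3.99 CPM (SD, n = 6) in non-responders. Adamts2, which trims procollagen, was 75.6 and 16.2 CPM in the responders against 8.85 ± 6.21 CPM (SD, n = 6) in non-responders. Responder 16 lay inside the non-responder range for both, which reached 29.2 CPM for Adamts5 and 17.5 CPM for Adamts2. Both genes passed as higher, and without responder 15 their log2 fold changes against non-responders were 0.28 and 0.81. Adamts14, another procollagen peptidase, fell by 0.69 on the log2 scale against non-responders (edgeR adjusted p = 0.0226). None of the 7 genes of the plasminogen system and proMMP activators, 5 cathepsins or 7 AP-1 subunits passed in any of the 3 comparisons. Fat cell, B cell and endothelial markers were higher in responder 15 than in responder 16. So were Timp4, Adamts5, Adamts2, Mmp23, Mmp27 and Mmp15, and the part of the markers was not tested.

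**Figure D5:**
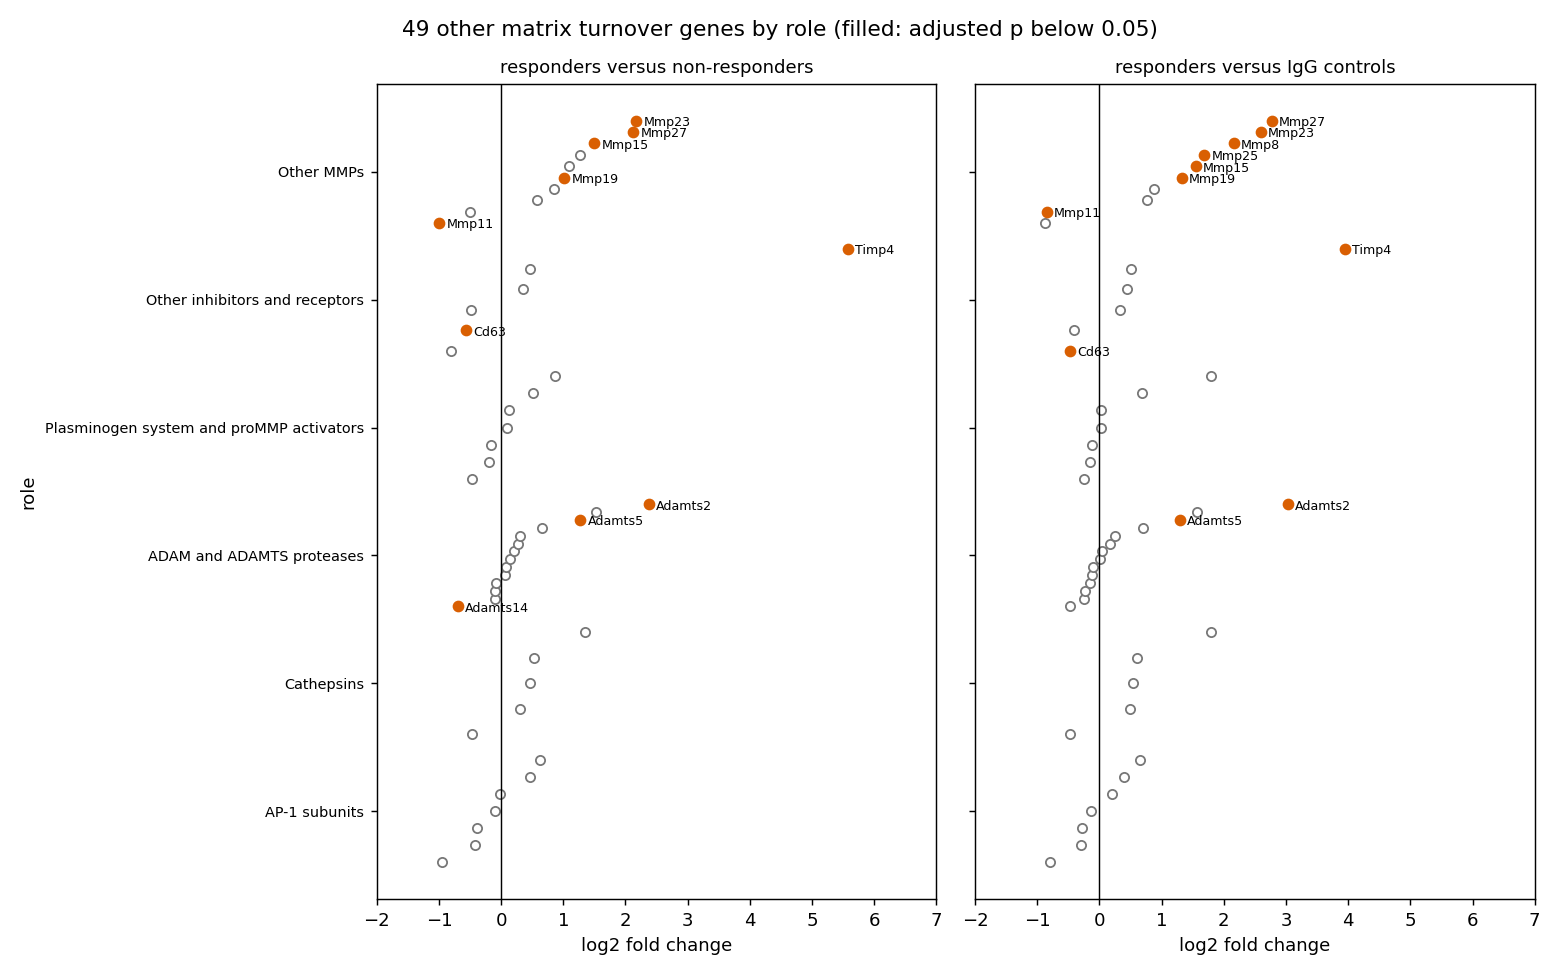
Log2 fold change (x axis) of 49 other matrix turnover genes in responders against non-responders (left) and against IgG controls (right), grouped by role on the y axis, with a filled marker where the edgeR adjusted p was below 0.05. Timp4 is farthest to the right, at 5.58 and 3.95, and the plasminogen, cathepsin and AP-1 groups hold no filled marker.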

How the data were processed

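Poly(A) RNA of 16 MC38 tumors was sequenced from strand-specific libraries. Per the labels' processing notes the submitters used STAR 2.6 and RSEM 1.3.0, and the deposited values are expected counts per gene, not normalized; whether RSEM was run with strand is not given in the sources used here. Of the values 7.83% were not whole and were rounded. The 92 entries of spike-in RNA (at most 185 counts in a tumor) were left out. Total counts were 26603449 to 39948866 per tumor. Intervals cover the spread between tumors, each from a separate mouse. Identifiers were matched to GENCODE names on GRCm38, with 53274 of 53465 paired with a symbol. Timp3 shares 1733 exon bases on the opposite strand with Syn3 (mean 33.0 counts) and Mmp12 shares 157 with Mmp1b (0 counts).

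Counts were fitted with edgeR 4.0.16 (TMM, filterByExpr, robust quasi-likelihood, R 4.3.3) in 1 model of 3 groups over all 16 tumors. P-values were adjusted by Benjamini-Hochberg over 18251 genes, and passing means an adjusted p below 0.05. The SE is the log2 fold change divided by the square root of F. CPM are TMM-scaled. DESeq2 1.42.0, its size factors, other filters, the compared groups alone, a mitochondrial covariate and leaving out each tumor were alternatives. Fits were tested on simulated data. The exact permutation test compared mean log2 CPM, with a two-sided p of 2 times the smaller tail (scipy 1.17.1). Correlations used log2 CPM (prior count 2) with 100000 permutations. The members and lists were chosen with earlier results of these data known. Named matrix genes passed with a log2 fold change above 1 in size, at most 4 per role and comparison by p; Mmp8, Mmp25, Mmp11, Cd63 and Adamts14 were named after their values were seen. The 3 genes of highest rho were found per member, and those of Timp3, Mmp3, Mmp12 and Mmp2 were named in part; 1 gene is not reported here. Any pair of libraries differed by a chi-square of at least 16.1 per degree of freedom, so none was a repeat of another.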

Additional observations from a re-analysis of the deposited data

Results flagged for a closer look

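Mmp12 in non-responder replicate 9 was 34.9 CPM, beside 104 to 179 CPM in the other 5 non-responders. On the log scale this was low enough to exceed Dixon's 95% limit for a group of 6. The test was made for 20 combinations of member and group, and chance flags about 1 in 20. This tumor also had the second highest mitochondrial share, 6.00%, whose part was not tested.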

How the results depend on the processing

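No paired analysis was possible because the labels number the tumors 1 to 16 across the groups and no number is shared. The count of members passing against non-responders was 0 in the main fit, in DESeq2 and in each other planned fit over all tumors, and 1 (Mmp14) without the 3 tumors of high mitochondrial share, an alternative chosen after seeing the data. In that last fit 32.6% of all genes passed. Leaving out 1 IgG control or non-responder at a time gave 0 to 1 members. The 1 was Mmp2 without non-responder replicate 13, its highest non-responder, where 19.6% of all genes passed. Against IgG controls 1 member passed. The count was 0 with no filter on low counts (14.3% of all genes), 3 with the mitochondrial share as a covariate (35.4%) and 3 with only the 2 groups compared (20.2%). It was 3 without the 3 tumors (41.6%) and 1 to 3 leaving out 1 IgG control or non-responder. In that last set, the 3 came without non-responder replicate 14, where 22.9% of all genes passed. Fits without a responder leave 1 tumor in that group, and their counts for the responder contrasts are not given. For non-responders against IgG controls the count was 0 in every fit that was run. Of the 49 matrix genes, 10 passed against non-responders and at most 15 leaving out 1 tumor. Against IgG controls 11 passed, 22 with the mitochondrial covariate (35.4% of all genes), 19 without the 3 tumors (41.6%) and at most 16 leaving out 1 tumor. In both, the highest count was without IgG control replicate 1, where 27.9% and 31.4% of all genes passed. Of 45 pairs, 15 passed, and 9 without the 3 tumors. The causes of these changes were not tested, beyond that fewer tumors entered some fits.

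Signs changed under some settings for the members below, none of which passed in that comparison. Against non-responders Mmp9 was 0.007017 and Mmp12 0.01621 with at least 10 counts in 8 tumors, and Mmp12 was 0.00605 with the mitochondrial covariate. Against IgG controls Mmp9 was -0.002123 without the 3 tumors. For non-responders against IgG controls Mmp14 was 0.05063 with the covariate and 0.1553 without the 3 tumors. Leaving out 1 tumor, the log2 fold change in responders against non-responders ranged from -0.2374 to 0.1204 for Mmp9, -1.998 to 0.1305 for Mmp10 and -1.462 to 0.63 for Mmp12. Against IgG controls it ranged from -0.1324 to 0.2667 for Mmp9, -1.567 to 0.5613 for Mmp10, -0.9072 to 0.2652 for Mmp13 and -0.3788 to 1.713 for Mmp12. For non-responders against IgG controls it ranged from -0.04054 to 0.1824 for Mmp2, -0.1118 to 0.09451 for Mmp14, -0.02677 to 0.2651 for Mmp9 and -0.07145 to 0.08656 for Timp2. The number of responders, 2, and the low counts of Mmp10 limit the precision.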
